A study of Homo sapiens with 4 samples.

Results

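The miR-15/16 family guide strands are the 7 mature miRNAs hsa-miR-15a-5p, hsa-miR-15b-5p, hsa-miR-16-5p, hsa-miR-195-5p, hsa-miR-424-5p, hsa-miR-497-5p and hsa-miR-503-5p (written without the hsa prefix from here on), taken by name from the 2656 mature miRNAs listed in the data. They were counted in 4 small RNA libraries of RD cells, a human rhabdomyosarcoma line of the embryonal type, which keeps part of the skeletal muscle programme. The cells were untreated in every group. Beside an input library there were the EVEN and ODD libraries from native pull-downs with separate sets of biotinylated antisense probes against exon 2 of HIPK3, the exon that forms the circular RNA circHIPK3, and the LacZ library from a pull-down with control probes against a bacterial mRNA. Each group is 1 library and 1 biological replicate, so the intervals given here cover counting error only and differences are between libraries. Exon 2 is also part of linear HIPK3 mRNA, so capture of the circle and of the linear RNA cannot be told apart, and the recovery of HIPK3 RNA itself was not analysed here.

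A miRNA guides Argonaute proteins to messenger RNAs through its seed, bases 2 to 8, and the strand of the hairpin that is retained is called the guide, the other the passenger. The miR-15/16 family is known for holding back the cell cycle, by repressing cyclins, cyclin-dependent kinases and CDC25A, and for repressing the survival gene BCL2. The locus of miR-15a and miR-16-1 within DLEU2 is often deleted in chronic lymphocytic leukaemia, and miR-424 and miR-503 are induced when myoblasts leave the cell cycle and differentiate.

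The mature sequences, from RefSeq on GRCh38.p14, are shown because the members share their 5′ part and differ after it. All 7 were found there. Capitals mark the seed.
miR-16-5p: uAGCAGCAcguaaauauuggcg
miR-195-5p: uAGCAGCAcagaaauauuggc
miR-15a-5p: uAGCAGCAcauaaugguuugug
miR-15b-5p: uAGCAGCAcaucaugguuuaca
miR-424-5p: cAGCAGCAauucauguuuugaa
miR-497-5p: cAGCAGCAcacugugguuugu
miR-503-5p: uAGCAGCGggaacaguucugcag
The first 6 of these sequences carry the seed AGCAGCA, and miR-503-5p carries AGCAGCG, so the longest string common to all 7 is AGCAGC. Outside the 7 members, miR-6838-5p has the seed AGCAGCA, and it had 0 reads in all 4 libraries. Position by position, miR-16-5p and miR-195-5p are the closest pair, with 2 mismatches over 21 bases, and miR-15a-5p and miR-15b-5p differ at 4 of 22 bases. miR-497-5p and miR-503-5p are the most distant, with 11 mismatches over 21 bases.

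The members come from 4 pairs of neighbouring hairpins. MIR15A (chromosome 13, 50049119 to 50049201, minus strand) and MIR16-1 (50048973 to 50049061) are 57 bases apart in an intron of DLEU2. MIR15B (chromosome 3, 160404588 to 160404685, plus strand) and MIR16-2 (160404745 to 160404825) are 59 bases apart in an intron of SMC4, a condensin subunit. MIR424 (chromosome X, 134546614 to 134546711, minus strand) and MIR503 (134546328 to 134546398) are 215 bases apart. MIR503 lies in an intron of MIR503HG. No gene in GENCODE 29, miRNA genes aside, spans the whole of MIR424. MIR195 (chromosome 17, 7017615 to 7017701, minus strand) and MIR497 (7017911 to 7018022) are 209 bases apart in an exon of MIR497HG. The 2 MIR16 hairpins give the same mature miR-16-5p, so its reads cannot be assigned to DLEU2 or SMC4.

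The libraries held 98950 (EVEN) to 2987858 (input) miRNA reads, with 425395 in LacZ and 426450 in ODD, so that 1 read is worth 10.1 CPM (reads scaled to a common library total) in EVEN and 2.35 or less elsewhere. The muscle label was matched by reads of all 4 muscle lineage miRNAs fixed as markers (miR-206, miR-1-3p, miR-133a-3p and miR-133b) in every library. Their summed share was lowest in ODD, at 3.50%, against 6.21% in the input, 6.70% in LacZ and 10.4% in EVEN. The 8 markers of hepatocytes, blood, neurons and epithelia summed to at most 0.0877%, in ODD, and to 0.0138% in the input, 0.0639% in LacZ and 0.0424% in EVEN. miR-451a of erythroid cells was at 0 in all 4 libraries, miR-124-3p of neurons had 1 read, in the input, and most of the reads in LacZ and ODD were miR-205-5p, with 208 and 355 reads. This epithelial marker had 4 reads in the input and 20 in EVEN. Against the input it was 365-fold higher in LacZ (141 to 1353), 151-fold in EVEN (50.6 to 607) and 622-fold in ODD (241 to 2295). The pull-downs thus hold a miRNA that was near the limit of counting in the input. The epithelial markers miR-200c-3p and miR-141-3p did not follow it. Against the input they were 1.25-fold and 0.609-fold in LacZ, and 1.01-fold and 0.616-fold in EVEN. In ODD miR-200c-3p was 0.778-fold, and miR-141-3p had 0 reads against 196 in the input. The blood marker miR-142-3p had 18 reads in the input and 9, 13 and 4 in LacZ, EVEN and ODD. Its EVEN level was 21.8-fold that of the input (9.82 to 47.1). The part of these markers in the results below was not tested.

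The family took 18.2% of the miRNA reads in the ODD library, against 3.18% in LacZ, 1.78% in EVEN and 3.30% in the input. The 95% exact binomial intervals were 18.04 to 18.27% for ODD, 3.13 to 3.23% for LacZ, 1.70 to 1.86% for EVEN and 3.28 to 3.32% for the input. The ODD library was therefore the one in which the family stood high, and the EVEN library, made with the other probe set against the same exon, the one in which it stood lowest.

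miR-16-5p, encoded in 2 copies and the most abundant member in each library, had 75357 reads in the input, 12285 in LacZ, 1621 in EVEN and 67640 in ODD. As levels these were 25221 CPM in the input, 28879 in LacZ, 16382 in EVEN and 158612 in ODD. It ranked 11th of all miRNAs in the input, 9th in LacZ, 15th in EVEN and 2nd in ODD.

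miR-503-5p, the member with the differing seed, had 10679 reads in the input, 672 in LacZ, 56 in EVEN and 5860 in ODD, or 3574, 1580, 566 and 13741 CPM. miR-15b-5p, the partner of miR-16-2 in SMC4, had 6307, 346, 69 and 3425 reads in the same order, or 2111, 813, 697 and 8031 CPM. For both, the ODD level was above the input and the LacZ and EVEN levels below it.

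miR-424-5p, the hairpin neighbour of miR-503, had 4642 reads in the input, 145 in LacZ, 7 in EVEN and 234 in ODD, or 1554, 341, 70.7 and 549 CPM. Unlike its neighbour it stayed below its input level in ODD. miR-15a-5p, the partner of miR-16-1 in DLEU2, had 1747, 72, 5 and 274 reads, or 585, 169, 50.5 and 643 CPM. Its ODD and input levels differed by less than the counting interval, at 1.099-fold (0.964 to 1.25) with library totals. This depends on the scaling, since its log2 ratio of 0.14 became 0.82 with edgeR's TMM scaling, 1.31 with DESeq2's size factors and 1.16 with totals that leave out the 10 most abundant miRNAs.

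miR-195-5p and miR-497-5p, which are known from cell cycle exit in heart muscle and quiescent muscle stem cells, were at the limit of counting. miR-195-5p had 1 read in the input, 1 in ODD and 0 in LacZ and EVEN. miR-497-5p had 2 reads in the input and 0 in each pull-down. A count of 0 allows up to 30.3 CPM in EVEN, 7.05 in LacZ and 7.03 in ODD (3 reads), so these 2 members could not be compared. With 67640 ODD reads of miR-16-5p beside it, from which it differs at 2 bases, at most 1 of those reads was counted as miR-195-5p.

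**Figure D1:**
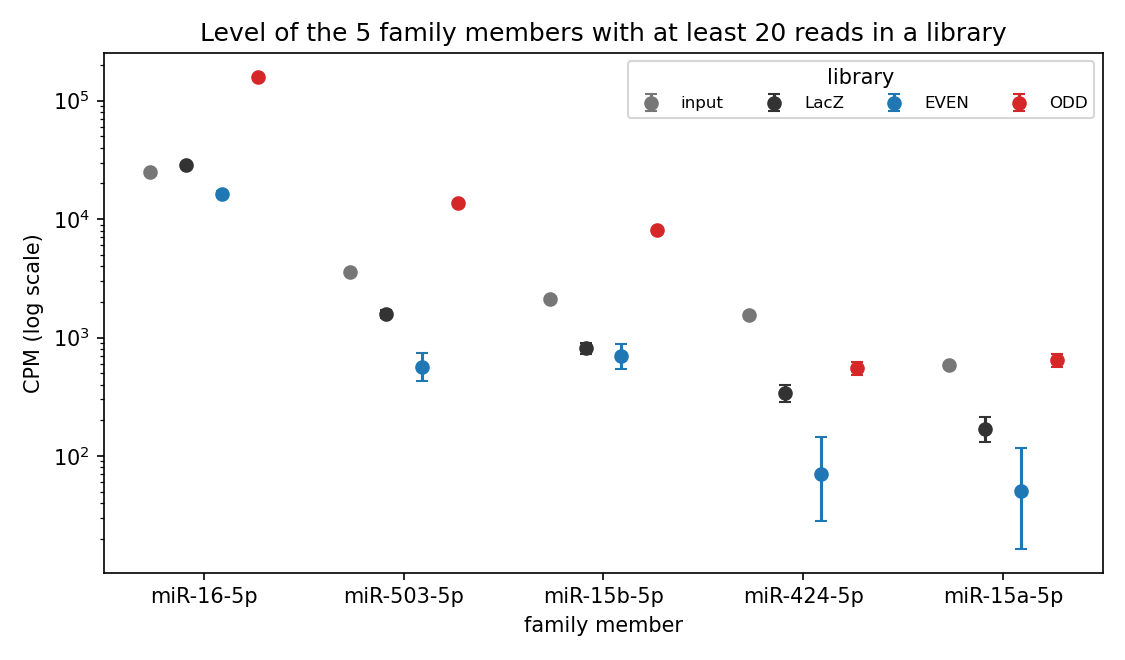
Level of each family member with at least 20 reads in a library, in CPM on a log scale, with 1 point per library and bars for the 95% exact binomial interval of the count. For miR-16-5p, miR-503-5p and miR-15b-5p the ODD point lies above the other 3, at 158612, 13741 and 8031 CPM, and for each of the 5 the EVEN point is the lowest.

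By CPM the order in the input was miR-16-5p, miR-503-5p, miR-15b-5p, miR-424-5p and miR-15a-5p, with intervals that did not overlap between neighbours. LacZ kept this order. In ODD miR-15a-5p (643 CPM, 569 to 723) and miR-424-5p (549 CPM, 481 to 624) had overlapping intervals, as had miR-15b-5p (697 CPM, 543 to 882) and miR-503-5p (566 CPM, 428 to 735) in EVEN, and miR-424-5p (28.4 to 146) and miR-15a-5p (16.4 to 118) there.

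The ODD probes were compared with LacZ to ask what they recovered beyond what control probes retain. A miRNA was tested when either library of the pair held 20 or more of its reads, and it was counted as higher or lower at 2-fold, on log2 of the ratio of shares of reads with 0.5 added to each count. Of the 5 members tested, each with at least 20 reads in both libraries, 4 were higher with ODD probes by 2-fold or more and 0 were lower. Over all 300 miRNAs tested, 13.0% were at least 2-fold higher and 70.3% at least 2-fold lower (22.0% and 34.3% with edgeR's TMM scaling). The members' median log2 ratio was 2.46, and that of all tested was -1.79.

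miR-15b-5p was 9.87-fold higher with ODD probes than with LacZ probes (95% counting interval 8.84 to 11.1), 13th from the top of the 300. miR-503-5p was 8.70-fold higher (8.03 to 9.44) and 14th, and miR-16-5p 5.49-fold higher (5.39 to 5.60) and 17th. miR-15a-5p was 3.80-fold higher (2.92 to 4.99) and 21st. miR-424-5p was higher by 1.61-fold (1.30 to 1.99), under the threshold, and 43rd. The call for miR-424-5p depends on the scaling, since its log2 ratio of 0.68 became 1.38 with totals that leave out the 10 most abundant miRNAs, 1.97 with TMM scaling and 2.13 with DESeq2's size factors. TMM scaling and DESeq2's size factors raise each ODD against LacZ log2 ratio by 1.29 and 1.45.

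Against the input, miR-16-5p was 6.29-fold higher in ODD (6.22 to 6.35), miR-503-5p 3.84-fold (3.72 to 3.97) and miR-15b-5p 3.81-fold (3.65 to 3.97), while miR-424-5p was 2.83-fold lower (2.48 to 3.24). The log2 ratio of miR-424-5p was -1.499 with library totals, and -0.81 with TMM scaling, -0.33 with DESeq2's size factors and -0.48 without the 10 most abundant miRNAs in the totals, all 3 under 2-fold. The members thus did not move by a common factor from input to ODD pull-down.

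The EVEN probes gave the other pattern. Here 3 of the 5 tested members were at least 2-fold lower than with LacZ probes and 0 higher, where 51.2% of the 289 miRNAs tested were at least 2-fold lower and 9.69% at least 2-fold higher (37.0% and 14.9% with DESeq2's size factors). The share among members is near that of all miRNAs, and so are the medians, at -1.47 and -1.06, which gives no result about the members as a group. miR-15a-5p and miR-424-5p passed the count minimum through LacZ alone.

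miR-424-5p was 4.82-fold lower with EVEN than with LacZ probes (2.28 to 12.2), miR-15a-5p 3.35-fold lower (1.37 to 10.6) and miR-503-5p 2.79-fold lower (2.12 to 3.73). miR-16-5p was 1.76-fold lower (1.67 to 1.86). miR-15b-5p was 1.17-fold lower with an interval that includes no difference (0.899 to 1.53), and its log2 ratio of -0.21 turned to 0.05 with TMM scaling, 0.19 with DESeq2's size factors and 0.21 without the 10 most abundant miRNAs in the totals. Of the 5, miR-15a-5p and miR-424-5p rest on 5 and 7 EVEN reads.

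The probe sets against the same exon were also set against each other directly, which does not involve LacZ. Of 203 miRNAs tested, 37.9% were at least 2-fold higher with EVEN and 18.2% at least 2-fold lower with EVEN, that is, higher with ODD; with TMM scaling these shares were 9.85% and 31.5%. All 5 tested members were at least 2-fold lower with EVEN. Of these, miR-16-5p, miR-15b-5p and miR-503-5p had at least 20 reads in both libraries, whereas miR-15a-5p and miR-424-5p passed the minimum through ODD alone.

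miR-503-5p differed most of the 5, at 24.3-fold lower with EVEN than with ODD probes (18.7 to 32.2). miR-15b-5p was 11.5-fold lower (9.08 to 14.8) and miR-16-5p 9.68-fold lower (9.22 to 10.2), and the values were 12.7-fold (5.38 to 39.5) for miR-15a-5p and 7.76-fold (3.71 to 19.5) for miR-424-5p. The interval of miR-503-5p does not overlap those of miR-15b-5p and miR-16-5p. The members' median log2 ratio was -3.52, and over all 203 it was 0.64, which TMM scaling turned to -0.38 and DESeq2's size factors to -0.40.

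**Figure D2:**
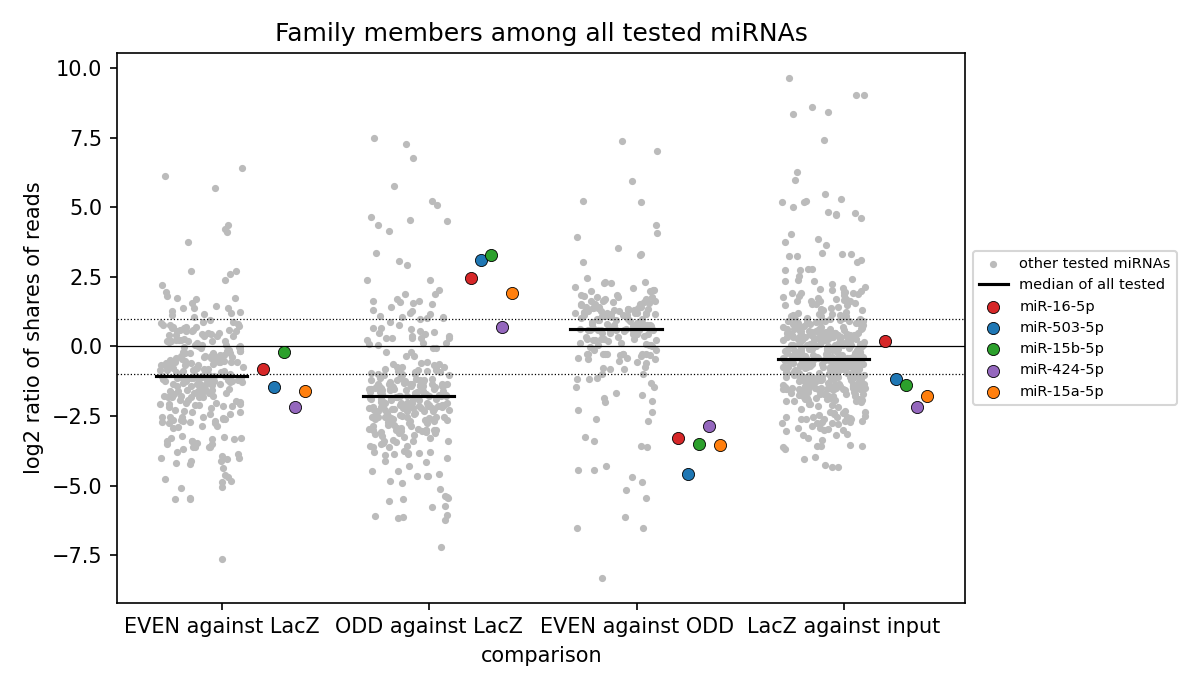
Log2 ratio of shares of reads in 4 comparisons, with the first-named library over the second; coloured points are family members, grey points the other tested miRNAs, black bars the median of all tested and dotted lines 2-fold. The 5 members lie at 0.68 to 3.30 in ODD against LacZ, above the median of -1.79, at -2.17 to -0.21 in EVEN against LacZ, around the median of -1.06, and at -4.59 to -2.86 in EVEN against ODD.

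The control pull-down was compared with the input to see how the family stood before any HIPK3 probe was used. Of the 5 tested members 4 were at least 2-fold lower in LacZ than in the input and 0 higher, where 34.3% of 475 miRNAs were at least 2-fold lower and 18.1% at least 2-fold higher (51.8% and 13.3% with TMM scaling). The members' median log2 ratio was -1.37, and that of all tested -0.44. miR-424-5p was 4.56-fold lower (3.86 to 5.41), miR-15a-5p 3.45-fold (2.73 to 4.44), miR-15b-5p 2.60-fold (2.33 to 2.90) and miR-503-5p 2.26-fold (2.09 to 2.45). Without the 10 most abundant miRNAs in the totals the log2 ratio of miR-503-5p went from -1.18 to -0.85, under 2-fold. miR-16-5p was 1.15-fold higher (1.12 to 1.17), and its log2 ratio of 0.20 turned to -0.41 with TMM scaling and -0.09 with DESeq2's size factors.

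Shares within the family do not depend on how libraries are scaled against each other. miR-16-5p made up 76.3% of the family's reads in the input (76.1 to 76.6), 90.9% in LacZ (90.4 to 91.3), 92.2% in EVEN (90.9 to 93.4) and 87.4% in ODD (87.1 to 87.6). Within the family's own reads, miR-16-5p thus took a larger share in all 3 pull-downs than in the input, and of the pull-downs the smallest in ODD. miR-503-5p made up 10.8% of the family's reads in the input, 4.97% in LacZ, 3.19% in EVEN and 7.57% in ODD. miR-424-5p went from 4.70% of the family in the input to 1.07% in LacZ, 0.398% in EVEN and 0.302% in ODD.

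The balance between members, among them the hairpin neighbours miR-424 and miR-503, also differed between libraries. For each miR-424-5p read there were 2.30 miR-503-5p reads in the input (2.22 to 2.38), 4.63 in LacZ (3.87 to 5.58), 8 in EVEN (3.64 to 20.8) and 25.0 in ODD (21.97 to 28.7). The ODD interval lies above the other 3. For each miR-15a-5p read there were 43.1 miR-16-5p reads in the input (41.1 to 45.3), 171 in LacZ (135 to 218), 324 in EVEN (139 to 1000) and 247 in ODD (219 to 279), so this ratio was higher in each pull-down than in the input. miR-16-5p also comes from MIR16-2, the neighbour of MIR15B. Per miR-15b-5p read there were 11.9 miR-16-5p reads in the input, 35.5 in LacZ, 23.5 in EVEN and 19.7 in ODD. The EVEN and ODD intervals of this ratio overlap (18.5 to 30.3 and 19.1 to 20.4). miR-15b-5p and miR-15a-5p, which share their seed and differ at 4 bases, stood at 3.61 to 1 in the input (3.42 to 3.81), 4.81 in LacZ (3.72 to 6.28), 13.8 in EVEN (5.64 to 43.8) and 12.5 in ODD (11.05 to 14.2).

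**Figure D3:**
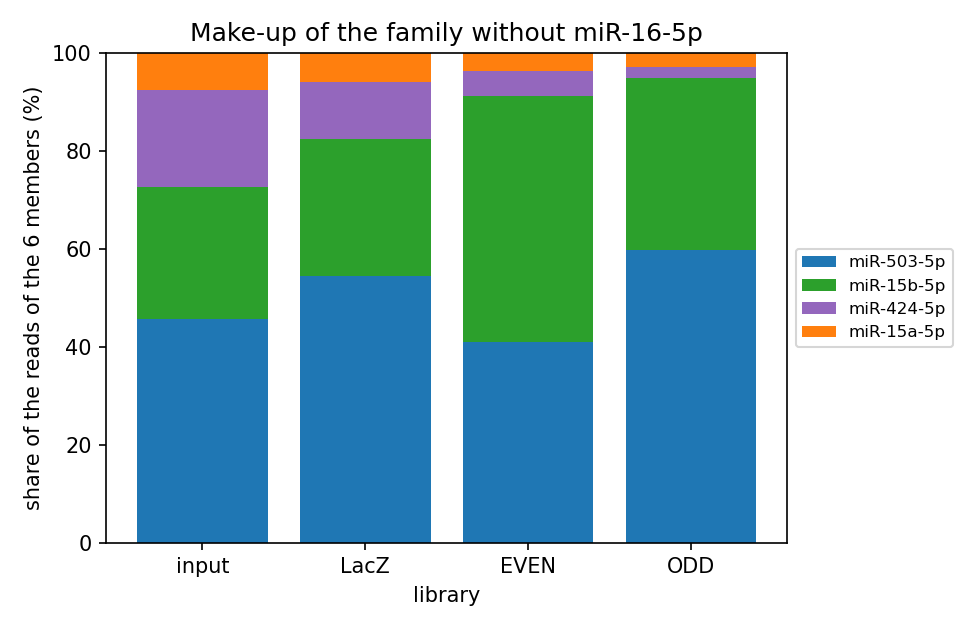
Make-up of the family after leaving out miR-16-5p, as stacked shares (in %) of the summed reads of the other 6 members in each library; miR-195-5p and miR-497-5p are too few to see. miR-424-5p takes 19.9% in the input and 2.39% in ODD, and miR-503-5p 45.7% and 59.8%; the EVEN bar rests on 137 reads.

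The passenger strands come from the same hairpins and so serve as a comparison within each locus. The hairpins of miR-15b and miR-503 are shown because their arms parted most clearly with enough reads. Capitals mark the 5p and then the 3p arm, from RefSeq on GRCh38.p14.
MIR15B: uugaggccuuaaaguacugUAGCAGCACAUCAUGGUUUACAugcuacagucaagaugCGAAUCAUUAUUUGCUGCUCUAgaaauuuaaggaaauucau
MIR503: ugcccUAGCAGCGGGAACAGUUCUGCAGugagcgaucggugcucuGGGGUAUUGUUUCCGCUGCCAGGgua
The 8 passenger strands of the family together held 0.0368% of the ODD reads, against 0.291% in the input, 0.0971% in LacZ and 0.0788% in EVEN. Most of the passenger reads in ODD were miR-15b-3p, and of the 3 passengers tested in ODD against LacZ 2 were at least 2-fold lower, where 70.3% of all miRNAs were. Their median log2 ratio was -1.54, near the -1.79 of all tested. That median is the value of miR-424-3p, which passed the count minimum through LacZ alone, with 30 LacZ and 10 ODD reads. Of the 2 passengers with at least 20 reads in both libraries, 1 was at least 2-fold lower.

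miR-15b-3p had 7088 reads in the input, 280 in LacZ, 56 in EVEN and 92 in ODD. For each of its reads there were 0.890 reads of miR-15b-5p in the input (0.860 to 0.921), 1.24 in LacZ (1.05 to 1.45), 1.23 in EVEN (0.854 to 1.79) and 37.2 in ODD (30.3 to 46.3). The arms of miR-15b were near parity in 3 libraries and far from it in ODD. miR-15b-3p was 3.05-fold lower in ODD than in LacZ (2.40 to 3.90) while its guide was 9.87-fold higher. Its log2 ratio of -1.60 is under 2-fold with TMM scaling or DESeq2's size factors, given the shifts above, whereas ratios between arms of 1 library do not depend on scaling.

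miR-503-3p had 305, 82, 8 and 53 reads in the input, LacZ, EVEN and ODD. Its hairpin gave 35.0 guide reads per passenger read in the input (31.2 to 39.4), 8.20 in LacZ (6.51 to 10.4), 7 in EVEN (3.32 to 17.0) and 111 in ODD (84.4 to 148). LacZ and EVEN were below the input and ODD above it. The level of miR-503-3p itself was 102 CPM in the input, 193 in LacZ, 80.8 in EVEN and 124 in ODD.

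miR-424-3p had 415, 30, 4 and 10 reads, with 11.2 guide reads per passenger read in the input (10.1 to 12.4), 4.83 in LacZ (3.24 to 7.42), 1.75 in EVEN (0.445 to 8.15) and 23.4 in ODD (12.5 to 49.4). The passengers of miR-16, miR-16-1-3p and miR-16-2-3p together, had 801, 19, 10 and 1 reads against the guide counts above. The ratio was 94.1 in the input (87.7 to 101), 647 in LacZ (414 to 1074), 162 in EVEN (87.9 to 339) and, from 1 passenger read, 67640 in ODD (12140 to 2671676). miR-15a-3p had 90, 2, 0 and 1 reads, too few in the pull-downs for a firm ratio. In each of these 5 sets of arms the ODD library had the highest ratio of those that could be computed, and for miR-15a the ODD and LacZ intervals overlap.

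**Figure D4:**
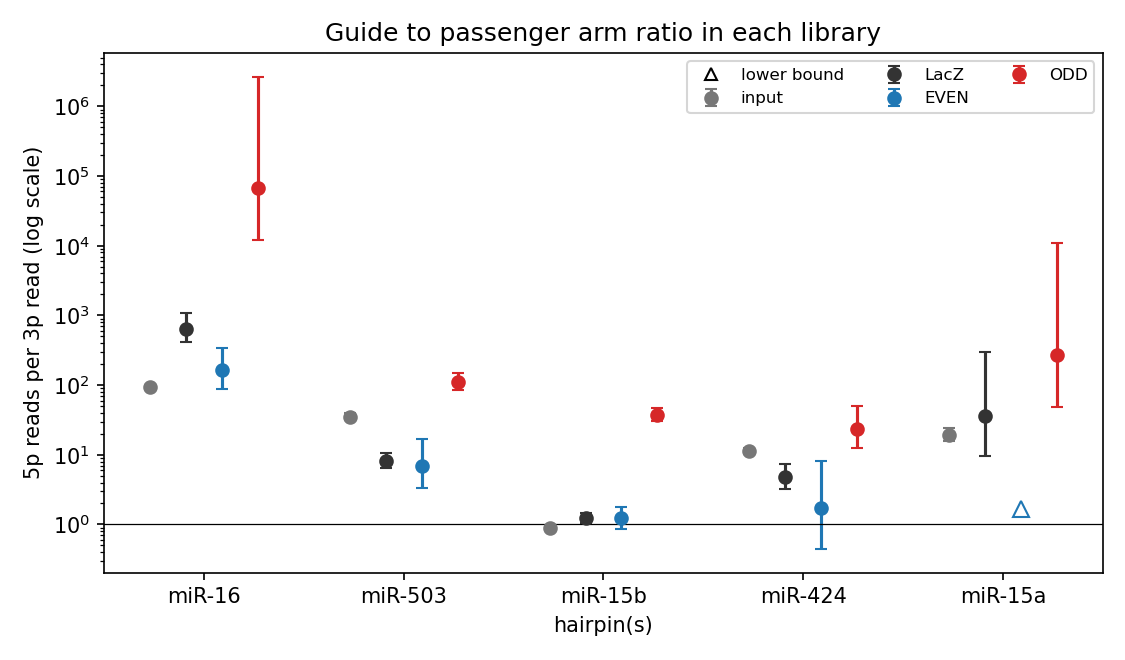
Reads of the guide (5p) arm per read of the passenger (3p) arm for 5 family hairpins on a log scale, with 95% exact conditional intervals; the open triangle is a lower bound from 0 passenger reads, using 3 reads. ODD is the highest computed ratio in each set, at 37.2 for miR-15b and 111 for miR-503, and the EVEN points of miR-15b and miR-503 (1.23 and 7) lie within the LacZ intervals.

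To see how other hairpins behaved, the log2 change of the ratio between arms was computed for the 56 other hairpins with at least 20 LacZ reads of both arms, a comparison chosen after the data were seen. The guide arm of each is not given, and for miR-15b itself the 3p arm had more input reads than the 5p arm, so changes were compared by size in either direction. From LacZ to ODD 23 of the 56 changed by 2-fold or more, with a median size of 0.75 on the log2 scale. The 5p per 3p ratio went up by 4.91 for miR-15b and 3.75 for miR-503, sizes that 3 and 4 of the 56 reached. It went up by 6.16 for miR-16, 2.66 for miR-15a and 2.23 for miR-424, sizes that 3, 7 and 7 of the 56 reached, although miR-16 and miR-15a fall short of the minimum with 19 and 2 LacZ passenger reads. From LacZ to EVEN 30 of the 56 changed by 2-fold or more, with a median size of 1.20. The 5p per 3p ratio changed there by -0.01 for miR-15b, -0.29 for miR-503, -1.40 for miR-15a, -1.52 for miR-424 and -2.03 for miR-16, sizes that 56, 48, 26, 24 and 15 of the 56 reached.

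Hairpins next to miR-424 and miR-503 on chromosome X were read as a further comparison by position. All 4 listed miRNAs of that neighbourhood, miR-450a-5p, miR-450b-5p, miR-542-3p and miR-542-5p, were at least 2-fold lower than LacZ with ODD and with EVEN probes, comparisons that share the LacZ library. Over all miRNAs tested, 70.3% were lower by that much with ODD and 51.2% with EVEN probes, so the list cannot be set apart from the rest by this count. miR-450a-5p and miR-542-5p passed through LacZ alone, and the EVEN value of miR-450a-5p rests on 2 reads, at 3.14-fold lower with an interval that includes no difference (0.789 to 27.2). Its log2 ratio of -1.36 is under 2-fold with DESeq2's size factors, which shift EVEN against LacZ by 0.41. miR-542-3p had 7989 reads in the input, 349 in LacZ, 25 in EVEN and 45 in ODD, and was 7.77-fold lower with ODD than with LacZ probes (5.69 to 10.9). miR-424-5p, the nearest of the hairpins to miR-503, was 1.61-fold higher with ODD probes, as given above.

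miR-103a-3p and miR-107, best known from metabolic regulation and encoded in introns of pantothenate kinase genes, begin with AGCAGC, so that their seed is offset by 1 base from that of the family. Capitals mark that seed.
miR-103a-3p: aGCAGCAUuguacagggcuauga
miR-107: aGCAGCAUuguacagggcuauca
Both were at least 2-fold higher with ODD than with LacZ probes, miR-103a-3p at 2.25-fold (2.16 to 2.35, 7056 and 3127 reads) and miR-107 at 2.94-fold (2.17 to 4.04, 168 and 57 reads). Over all 300 miRNAs tested 13.0% were higher by that much, or 22.0% with TMM scaling. These sequences differ only at the base before the last. Since it is unknown how reads that match several sequences were counted, miR-107 may not be a separate result. miR-103b, at 2.48-fold (2.27 to 2.71), comes from the strand opposite to the miR-103a hairpins, and since it is unknown whether the counting used strand, it is no separate result. The string AGCAGC was searched in the strand of the mature miRNA only, in the 2367 listed miRNAs with a RefSeq sequence, and 20 hold it, 13 of them outside the family. Of those 13, 3 could be tested in ODD against LacZ. Beside miR-103a-3p and miR-107, miR-191-5p holds it from base 16, with 1810 LacZ and 593 ODD reads and a log2 ratio of -1.61, which the shifts above bring under 2-fold. Of these 3, miR-191-5p alone lay below LacZ, and the 2 that begin with the string lay above it. The value of miR-191-5p is close to the -1.79 that was the median of the 300 miRNAs tested. A fall of 2-fold or more was common among them, at 70.3%. Whether the string plays a part in recovery was not tested.

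The miRNAs with the pattern most like that of miR-16-5p were ranked by Euclidean distance of log2(CPM + 1), centred on each miRNA's mean over the 4 libraries, among 66 others with at least 100 reads in every library. The 5 nearest were miR-24-3p (distance 0.99), miR-3074-5p (1.21), miR-103a-3p (1.22), miR-103b (1.75) and let-7i-5p (1.79). Since it is unknown whether the counting used strand, miR-103b is no separate result beside miR-103a-3p. Whether miR-3074-5p is separate from miR-24-3p was not tested. miR-24-3p had 32884 reads in the input, 4367 in LacZ, 530 in EVEN and 11813 in ODD, which is 2.70-fold above LacZ in ODD (2.61 to 2.79) and 1.92-fold below it in EVEN. With 4 libraries this likeness is a description, and the other members could not enter, since each had fewer than 100 EVEN reads.

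Exon 2 of HIPK3 (chromosome 11, 33286413 to 33287511, plus strand of GRCh38, 1099 bases, GENCODE 29) was searched for the letters that pair with the seeds, on the transcribed strand and across the junction of the circle. It holds 0 matches to TGCTGCT, the complement of bases 2 to 8 of 6 members, 0 to CGCTGCT, that of miR-503-5p, and 0 to the shorter GCTGCT, the complement of bases 2 to 7 of all 7. Of 4211 other exons of protein-coding transcripts with 989 to 1208 bases, 21.3% hold TGCTGCT, 8.98% hold CGCTGCT and 46.8% hold GCTGCT, which lies within the other 2 strings. Those exons were matched by length and not by base composition, and the exon searched is 42.0% G and C. The rest of the linear HIPK3 mRNA was not searched. The longest uninterrupted stretch of a member that pairs with the exon, G:U pairs not counted, was 6 to 8 bases, against a median of 7 over all 2367 miRNAs. The longest stretch identical to the exon, and so able to pair with an antisense strand, was 7 bases in miR-16-5p, miR-15a-5p and miR-15b-5p, 8 in miR-503-5p and 9 in miR-424-5p, against a median of 7. The probe sequences were not used here.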

How the data were processed

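Small RNA was sequenced from 4 libraries of RD cells, per the labels (QIAseq miRNA kit, NovaSeq). The authors' deposited table holds raw counts for each mature miRNA, with totals of 98950 to 2987858 reads, and CPM, which equal counts over library totals to within 1.46e-11 CPM. The submitters' processing notes name GRCh38; use of molecular identifiers, trimming, aligner, miRNA annotation, multi-mapping and strand are not given in the sources here, so counts may hold amplified copies and intervals may be too narrow.

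Groups follow the titles. With 1 library each, no test across replicates exists. Ratios of shares carry 95% exact conditional (Clopper-Pearson) intervals. A miRNA was tested with 20 reads in either library and counted at 2-fold with 0.5 added. A ratio of shares gives no absolute amount. Members, lists and alternatives were chosen with earlier results of these data known. Named were all members, their passengers, seed relatives, neighbours on chromosome X and the 5 miRNAs nearest to miR-16-5p. miR-191-5p and the 56 other hairpins were chosen later. Alternatives used edgeR 4.0.16 (TMM) and DESeq2 1.42.0 (size factors). Other tools were Python 3.11.15, pandas 2.3.3, numpy 2.4.6, scipy 1.17.1, matplotlib 3.10.9 and R 4.3.3. The 2-fold calls and the coverage of the interval of a ratio had first been tested on simulated counts. For the calls, the simulated totals were corrected for a known shift between libraries. The library totals of the data are not so corrected, so that test does not cover the scaling. The other steps were not simulated.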

Additional observations from a re-analysis of the deposited data

Results flagged for a closer look

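Against the shared LacZ library, the EVEN and ODD libraries lay on opposite sides for 5 members and for miR-103a-3p. Only the members, their passengers, miR-103a-3p, miR-103b, miR-107 and the listed neighbours on chromosome X were searched for this. The share of all tested miRNAs on opposite sides was not computed, so these cannot be set apart from the rest. With 1 library each, the difference was not tested. As ODD minus EVEN log2 ratio to LacZ it was 4.59 for miR-503-5p, 3.53 for miR-15a-5p, 3.52 for miR-15b-5p, 3.27 for miR-16-5p, 2.86 for miR-424-5p and 1.68 for miR-103a-3p. LacZ cancels in this difference, so these values repeat the EVEN against ODD log2 ratios with the sign reversed. Those of miR-15a-5p and miR-424-5p rest on 5 and 7 EVEN reads. The EVEN side of miR-15b-5p is within counting error of LacZ and turns with the scaling.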

How the results depend on the processing

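The count of members at least 2-fold higher with ODD than with LacZ probes was 4, and 3 to 5 over the 10 alternatives. At a minimum of 1 read the 5 included miR-195-5p, from 1 ODD read, 0 LacZ reads and the added 0.5. The members' EVEN against ODD count of 5 and all seed-site counts of 0 did not move. At a 4-fold threshold 1 member was lower with EVEN than with LacZ probes (3 at 2-fold) and 1 lower in LacZ than in the input (4 at 2-fold). At a minimum of 1 read, 1 member counted as higher in LacZ than in the input, from 0 LacZ reads and the added 0.5. With 5 added to each count miR-15a-5p was no longer 2-fold lower with EVEN probes (-0.84). Without the 10 most abundant other miRNAs in the totals, the family's share was 39.0% in ODD, 4.98% in the input, 6.09% in LacZ and 4.73% in EVEN. Without miR-16-5p it was 2.30%, 0.782%, 0.290% and 0.138%. Within the family without miR-16-5p, the shares in the input, LacZ, EVEN and ODD were 45.7%, 54.4%, 40.9% and 59.8% for miR-503-5p, 26.98%, 28.02%, 50.4% and 34.97% for miR-15b-5p, 19.9%, 11.7%, 5.11% and 2.39% for miR-424-5p, and 7.47%, 5.83%, 3.65% and 2.80% for miR-15a-5p. Of 159 recomputed member ratios 113 stayed within the counting interval and 46 moved beyond it; 0 members past 2-fold changed direction. The scalings of ODD against the input were added after seeing the data.

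Over all tested miRNAs, TMM scaling gave 12.5% higher and 40.8% lower for EVEN against LacZ, 22.0% and 34.3% for ODD against LacZ, 9.85% and 31.5% for EVEN against ODD, and 13.3% and 51.8% for LacZ against the input, with medians shifted by 0.26, 1.29, -1.02 and -0.60. DESeq2's size factors gave 14.9% and 37.0%, 22.7% and 32%, 9.36% and 31.5%, and 15.4% and 40.8%, and totals without the 10 most abundant miRNAs 15.2% and 37.0%, 18.3% and 53.3%, 27.6% and 20.2%, and 22.7% and 26.7%. In the same order, the counts higher and lower were 28 and 148, 39 and 211, 77 and 37, and 86 and 163. At a minimum of 1 read they were 149 and 248, 155 and 517, 260 and 83, and 478 and 225, and at 4-fold 12 and 76, 20 and 137, 22 and 25, and 45 and 55. At 100 reads they were 15 and 80, 30 and 108, 39 and 30, and 45 and 106. With 5 added they were 32 and 87, 36 and 208, 82 and 31, and 100 and 93. No paired analysis was possible because each group holds 1 library. Depth limits EVEN most, where miR-15a-5p and miR-424-5p had 5 and 7 reads.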
